A study of Mus musculus with 24 samples.

Results

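The comparison described here set 6 mouse retinal organoids (MROs) collected on day 22 of culture (D22) against 6 collected on day 20 (D20), out of 24 sequenced organoids in all, and it covered every annotated gene of the count tables (46603 genes, of which 16253 passed the filter on low counts and were tested). MROs are small pieces of retinal epithelium that form from pluripotent stem cells in culture. All organoids were wildtype, grown from the mouse embryonic stem cell line E14TG2a by a protocol in which each early organoid is cut by hand into 3 pieces and then receives the synthetic retinoid EC23 for some days, before the sampling described here. The labels list solvent water as the only addition in both groups. The titles of the D22 organoids carry the tag Ctrl, and those of the D20 organoids do not. The stated difference between the groups was 2 days of culture, which cannot be told apart from the day of collection. Each library was made from 1 whole organoid, and all came from 1 independent experiment. The 12 organoids of D25 and D30 entered the fit to estimate the spread. Those of D25 also served to compare the steps before and after D22.

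The mammalian retina is built from a pool of dividing progenitors that leave the cell cycle in an ordered sequence of fates. Ganglion, horizontal and cone cells are born early, while rods, bipolar cells and Müller glia are born late. A newborn rod first expresses its transcription factors (Crx, then Nrl and Nr2e3) and later the proteins of the light-sensing cascade, the disc membranes of the outer segment and the ribbon synapse. Progenitors are held in the cycle by Notch signals and are released by proneural factors.

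Between 13634846 and 15793703 reads were counted per D20 organoid and between 13942695 and 15789570 per D22 organoid, so that depth was alike in both groups. A total of 3 reads was worth 0.19 to 0.22 CPM (counts scaled to library size), and this limit allows for counting error alone, as molecules were not barcoded. Levels are given as normalized CPM, that is, CPM after TMM scaling between libraries. Changes are log2 fold changes, with their standard error (SE), of D22 against D20 from edgeR's quasi-likelihood test, and a gene was called at an adjusted p below 0.01 (Benjamini-Hochberg over all tested features). In such bulk samples, fewer cells of a type and less RNA per cell cannot be told apart. Since all organoids came from 1 experiment, the p-values measure the spread between organoids of that experiment.

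The marker lists were read first. Photoreceptor transcription factors were abundant in every organoid, with sums of 2999 to 3640.0 normalized CPM at D20 and 3498 to 5545 at D22. Lens crystallins and related lens genes were all below the filter, with sums of at most 3.56 and 4.4 and 5 of 20 at 0 in all 12 organoids. Genes of microglia summed to at most 3.92 and 3.21, and genes of pluripotent cells to at most 5.71 and 7.78. Genes of forebrain cortex type neurons were uneven among the D20 organoids. Their sum was 191, 269 and 383 in D20 organoids 3, 4 and 6, between 87.3 and 118 in the other D20 organoids, and between 79.7 and 116 at D22, with none of the 20 genes at 0 throughout. Neurod6, a bHLH factor of cortical and of some amacrine neurons, was at 11.4, 2.55, 56.1, 24.7, 1.78 and 144 normalized CPM in D20 organoids 1 to 6 and at 0.123, 7.19, 1.01, 1.16, 7.70 and 3.26 in D22 organoids 1 to 6. The 13 protein coding genes of mitochondrial DNA were listed at 0 in every organoid and are not described.

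Over the 2 days, 540 of the 16253 annotated genes tested changed (3.32%), 416 to a higher level at D22 (2.56%) and 124 to a lower level (0.763%). The median of the called changes was 0.84 on the log2 scale for the higher and -0.82 for the lower genes. At least 2-fold changes were seen for 152 of the higher and 35 of the lower genes, and at least 4-fold changes for 29 and 5. The 6 organoids of each day did not overlap for 251 of the higher and 86 of the lower genes, and over all tested genes for 770 (4.74%). By biotype, 504 of the called genes were protein coding. Long noncoding RNAs made up 27, and 26 of these were higher at D22.

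**Figure D1:**
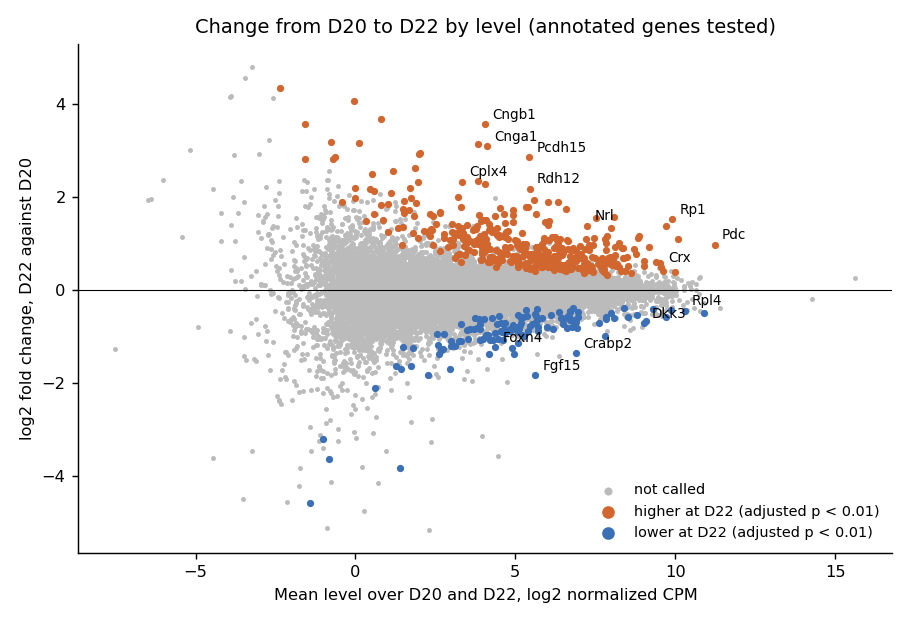
Each point is an annotated gene with its mean level over the 12 organoids (horizontal axis, log2 normalized CPM) and its log2 fold change of D22 against D20 (vertical axis). Genes called higher at D22 (orange) outnumber those called lower (blue), and photoreceptor genes such as Cngb1 (3.57) are labelled among the large rises, progenitor genes such as Foxn4 (-1.23) among the falls.

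The days also differed over the transcriptome as a whole. Organoids of different days were on average 9.68 units of Euclidean distance farther apart than organoids of the same day (log2 CPM over the tested annotated genes; mean 105 between days, 94.5 within D20 and 95.4 within D22). An exact permutation test over all splits of the 12 organoids into 6 and 6, two-sided, gave p = 0.00216, the smallest that this design allows. The first principal component held 22.4% of the variance. D20 organoids lay between -56.1 and -17.9 on it and D22 organoids between -3.9 and 54.0.

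**Figure D2:**
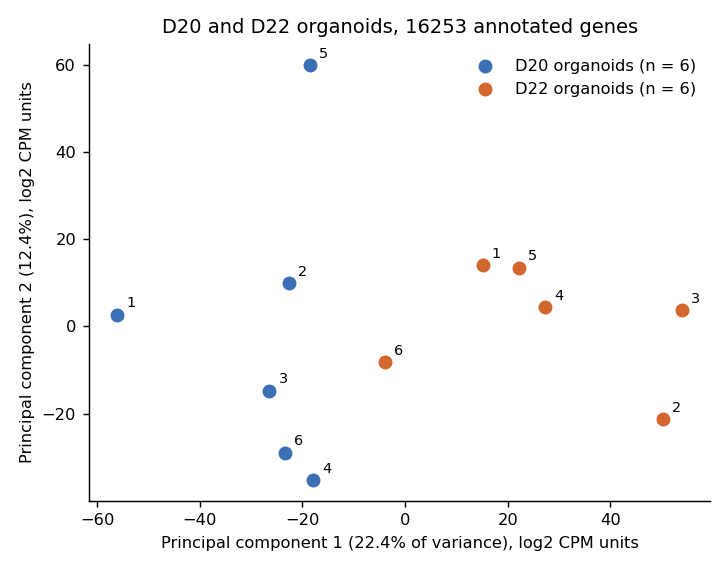
Principal components 1 and 2 of the 12 organoids (log2 CPM units, 22.4% and 12.4% of the variance); each point is an organoid with its number, D20 in blue and D22 in orange. The days are apart on component 1, where D20 organoid 1 lies at the low end, D22 organoids 2 and 3 at the high end, and D22 organoid 6 nearest to D20.

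The organoids of a day were themselves spread in the direction of the change. Of the 416 genes called higher, D22 organoid 3 had the highest level of its day for 325, D22 organoid 6 the lowest for 269, and D20 organoid 1 the lowest of its day for 268. Of the 124 genes called lower, D22 organoid 3 was the lowest of its day for 57 and D22 organoid 6 the highest for 66, while D20 organoid 1 was the highest for 63. These counts are a description, since the genes were called with the same organoids. The number of calls depended on the same organoids. It was 289 without D20 organoid 1, 336 without D22 organoid 2, 268 without D22 organoid 3 and 823 without D22 organoid 6. With D22 organoids 2 and 3 both left out, 115 genes were higher and 3 lower, and with D20 organoids 3, 4 and 6 left out, 169 were higher and 36 lower. A fit of the D20 and D22 organoids alone called 329 genes higher and 303 lower.

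Rod genes had the highest share of calls of the lists examined. Of 19 tested genes of the rod phototransduction cascade downstream of the visual pigment, 16 were higher at D22 (84.2%) and 0 were lower. Over all tested genes, 2.56% were higher. The median change of the rod genes was 1.16 on the log2 scale, against -0.06 over all genes tested. The summed level of the list was 1952 to 3569 normalized CPM at D20 and 4544 to 9100.0 at D22. In light, the cascade runs from transducin to phosphodiesterase, which lowers cGMP and closes the cyclic nucleotide gated channel.

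Promoter sequences were also searched for short motifs. RefSeq promoters (GRCm38.p6, 250 bases before to 50 bases after each annotated start) were matched by symbol, and the letters TAATCC, the core of a site used by the homeodomain factors Crx and Otx2, were searched on both strands. They stood in 68 of 441 promoters of genes called higher (15.4%, 315 genes matched), in 2 of 114 promoters of genes called lower (1.8%, 88 genes matched), in 5.9% of 14008 promoters of tested genes and in 7.1% of all 32851 promoters. Of the 12 promoters matched for the called rod genes, 6 held these letters. A match is a description of the sequence and not of binding. The promoters of both rod channel subunits, of the guanylate cyclase Gucy2e, of Crx and of Samd11 hold 1 or 2 matches each. They belong to genes that were higher at D22 and are printed because they hold matches. Crx and Samd11 are not in the rod list. The promoters of Nrl, Nr2e3, Pde6b, Pdc, Slc24a1 and Rdh12, which also rose, hold 0 matches. Capitals mark TAATCC or its reverse complement, and each sequence runs 5′ to 3′ on the strand of its gene.

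Cngb1 promoter on chr8:95306536-95306835, minus strand: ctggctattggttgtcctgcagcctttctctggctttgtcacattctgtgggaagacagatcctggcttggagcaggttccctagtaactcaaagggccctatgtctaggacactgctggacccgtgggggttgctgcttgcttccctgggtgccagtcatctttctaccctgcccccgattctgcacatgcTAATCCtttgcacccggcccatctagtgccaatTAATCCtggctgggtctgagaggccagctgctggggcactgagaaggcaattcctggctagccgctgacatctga

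Cnga1 promoter on chr5:72642703-72643002, minus strand: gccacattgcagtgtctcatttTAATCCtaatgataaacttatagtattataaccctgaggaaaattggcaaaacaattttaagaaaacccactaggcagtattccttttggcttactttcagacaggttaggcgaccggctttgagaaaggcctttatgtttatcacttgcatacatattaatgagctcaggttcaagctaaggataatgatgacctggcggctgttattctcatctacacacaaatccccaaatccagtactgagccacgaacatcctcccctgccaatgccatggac

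Gucy2e promoter on chr11:69236973-69237272, minus strand: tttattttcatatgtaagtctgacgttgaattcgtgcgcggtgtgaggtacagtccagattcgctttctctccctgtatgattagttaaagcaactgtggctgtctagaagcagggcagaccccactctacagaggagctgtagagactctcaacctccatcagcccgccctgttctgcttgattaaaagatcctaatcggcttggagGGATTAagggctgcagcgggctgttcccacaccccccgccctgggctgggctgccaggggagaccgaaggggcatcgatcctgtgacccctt

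Crx promoter on chr7:15879906-15880205, minus strand: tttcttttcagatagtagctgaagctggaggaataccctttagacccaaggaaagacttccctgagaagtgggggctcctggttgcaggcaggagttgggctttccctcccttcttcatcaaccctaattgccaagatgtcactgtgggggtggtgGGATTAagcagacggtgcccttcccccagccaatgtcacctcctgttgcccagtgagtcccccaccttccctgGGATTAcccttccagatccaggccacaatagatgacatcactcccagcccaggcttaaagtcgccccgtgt

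Samd11 promoter on chr4:156255293-156255592, minus strand: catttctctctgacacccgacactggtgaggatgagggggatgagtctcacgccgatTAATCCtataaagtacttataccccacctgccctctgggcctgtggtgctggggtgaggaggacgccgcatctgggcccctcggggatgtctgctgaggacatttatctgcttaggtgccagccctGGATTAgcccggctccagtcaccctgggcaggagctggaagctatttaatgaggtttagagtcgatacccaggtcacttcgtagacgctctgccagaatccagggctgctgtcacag

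The 6 other motifs, none of which contains another, were searched in the same way. TGCTGAC, a part of the site used by Nrl, was in 4.8% of the promoters of higher genes, 5.3% of those of lower genes, 3.6% of those of tested genes and 4.7% of all promoters. In the same order, the shares were 17.7%, 16.7%, 15.4% and 16.3% for the E box letters CAGCTG, and 11.6%, 12.3%, 11.5% and 17.2% for CAGATG. The E2F type letters GGCGGGAA were in 2.5%, 6.1%, 3.9% and 2.2%, and TTCGCGC in 2.0%, 5.3%, 2.8% and 1.6%. TTTGAA, the letters of the cell cycle homology region, were in 11.3%, 13.2%, 11.6% and 17.9%. The lower genes had 114 promoters, so that each of their shares rests on few sequences.

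The channel subunits had some of the largest rises. The beta subunit Cngb1 (ENSMUSG00000031789, chromosome 8 from 95239045 to 95306585 of GRCm38) was at 0.0699, 1.81, 1.72, 4.82, 3.63 and 3.33 normalized CPM in D20 organoids 1 to 6 and at 12.6, 62.4, 62.3, 20.0, 13.5 and 12.5 in D22 organoids 1 to 6. Every D22 organoid was above every D20 organoid, and D22 organoids 2 and 3 stood far above the other D22 organoids (log2 change 3.57, SE 0.43, adjusted p = 9.17e-06). The alpha subunit Cnga1 (ENSMUSG00000067220, chromosome 5 from 72603696 to 72644275) was at 0.489, 1.95, 2.34, 7.19, 5.26 and 4.67 at D20 and at 14.5, 55.7, 56.9, 21.1, 15.2 and 23.1 at D22. It too was highest in D22 organoids 2 and 3 and had no overlap between days (log2 change 3.08, SE 0.37, adjusted p = 9.17e-06). Slc24a1, the exchanger that carries calcium out of rods, went from 18.9 ± 5.17 to 65.5 ± 33.1 (SD, n = 6; log2 change 1.79, SE 0.24, adjusted p = 3.49e-05).

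Recoverin (Rcvrn, ENSMUSG00000020907, chromosome 11 from 67695326 to 67703333), a calcium sensor that restrains the opsin kinase Grk1, was at 2.73, 1.61, 1.44, 5.21, 2.21 and 4.16 normalized CPM at D20 and at 15.4, 35.6, 51.2, 17.4, 13.9 and 19.8 at D22. The groups did not overlap (log2 change 3.13, SE 0.30, adjusted p = 5.2e-07). Among the phosphodiesterase subunits, the catalytic Pde6a rose from 1.35 ± 0.378 to 5.37 ± 2.48 (log2 fold change 1.98) and the catalytic Pde6b from 289 ± 71.0 to 648 ± 188 (1.16). The inhibitory Pde6g rose by 2.00 with overlapping groups.

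Other members changed by smaller factors. Per kilobase of annotated exon, phosducin (Pdc), which binds the beta and gamma subunits of transducin, had the highest level of the tested rod genes at both days, 485 normalized CPM per kilobase at D20 and 948 at D22 (log2 fold change 0.97). Rod arrestin (Sag) was next at D22 with 137, and its levels of 146 to 680.4 normalized CPM at D20 and 682 to 2237 at D22 just missed each other (1.38). Gucy2e, which makes the cGMP that keeps the channel open, was at 20.4 to 27.4 at D20 and at 39.2 to 50.5 at D22 (log2 change 0.87, SE 0.12, adjusted p = 4.03e-05). The transducin subunits Gnb1 (0.69) and Gngt1 (0.91) and the kinase Grk1 (1.09) also rose. So did Rgs9 (0.82) with its anchor Rgs9bp (0.99), which speed the shutoff of transducin. The days overlapped for Grk1 and Rgs9.

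A second guanylate cyclase, Gucy2f, was called from few reads. It had 1 count in the 6 D20 organoids together and 1 to 13 counts in each D22 organoid. Its D22 mean was 1.87 times the level of 3 counts per D20 library, without regard to the spread between organoids. The 3 rod genes that did not pass were the transducin alpha subunit Gnat1 (0.247 ± 0.306 and 0.732 ± 0.898 normalized CPM, adjusted p = 0.168), the calcium sensor Guca1a (log2 change -0.11, adjusted p = 0.924) and the G protein subunit Gnb5 (log2 change 0.39, adjusted p = 0.198). Between 13 and 16 of the rod genes were called when 1 organoid was left out, 10 without D20 organoids 3, 4 and 6, and 8 without D22 organoids 2 and 3.

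**Figure D3:**
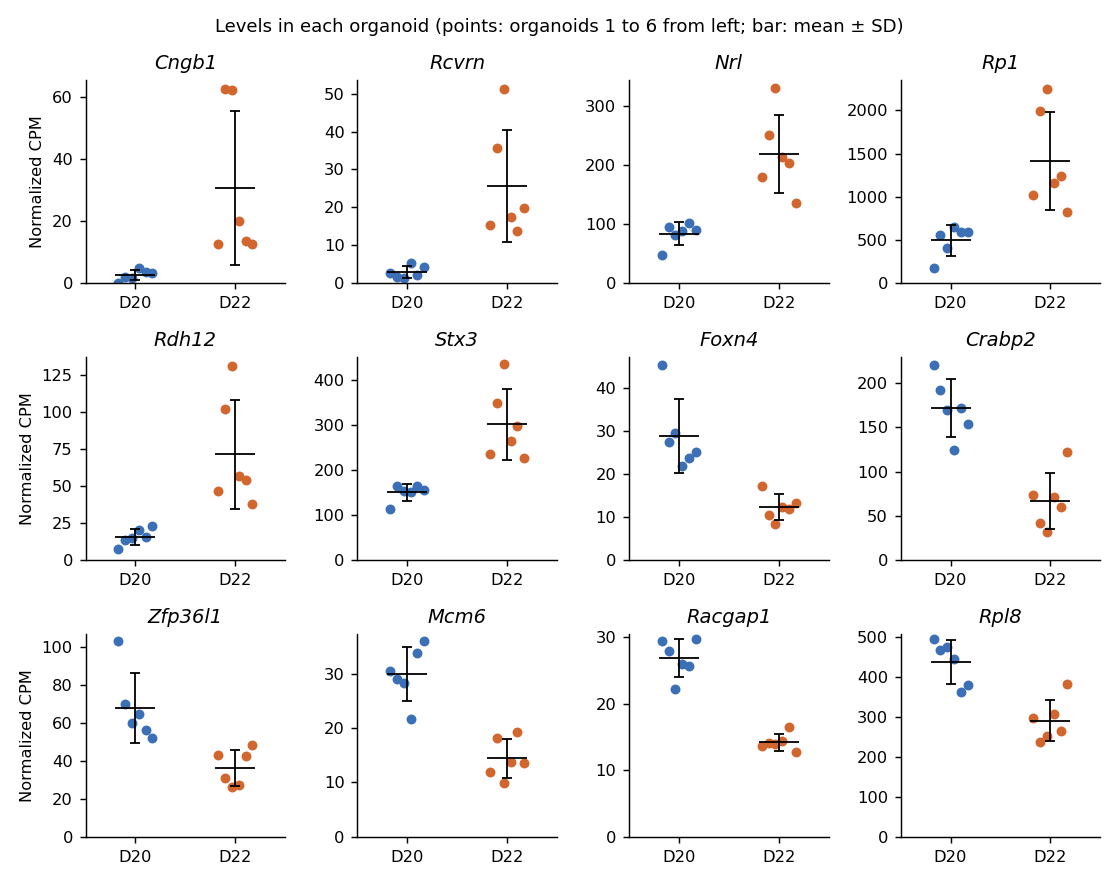
Normalized CPM of 12 genes in each organoid (D20 blue, D22 orange, organoids 1 to 6 from left to right within a day, black mean ± SD). Cngb1 to Stx3 are higher at D22, with D22 organoids 2 and 3 on top, and Foxn4 to Rpl8 are lower; the days do not overlap except for Rpl8, where D22 organoid 6 (383) lies within the D20 range.

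Photoreceptor transcription factors rose in part, with 7 of 17 higher (41.2%, against 2.56% of all tested genes) and 0 lower. Nrl, the leucine zipper factor that commits cells to the rod fate, was at 47.5, 94.8, 82.3, 88.7, 102 and 89.5 normalized CPM in D20 organoids 1 to 6 and at 180.4, 251, 331, 214, 203 and 137 at D22. D20 organoid 1 had the lowest level and D22 organoid 3 the highest, and the groups did not overlap (log2 change 1.38, SE 0.17, adjusted p = 9.17e-06). Nr2e3, which represses cone genes in rods, rose from 136 ± 49.3 to 404 ± 179.5 (1.57). Samd11 (1.92) and Samd7 (1.10), which act with Polycomb repressors in photoreceptors, the repressor Ankrd33 (1.64) and the zinc finger factor Casz1 (0.87) also rose. Crx, which acts in both rods and cones, was at 577 to 672 at D20 and at 724 to 1044 at D22 (log2 change 0.48, SE 0.10, adjusted p = 0.00341). Its call was lost without D20 organoid 1 or D22 organoid 2 or 3 (adjusted p 0.0117 to 0.0159).

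Other factors of photoreceptor fate did not pass, among them Otx2, Neurod1 and Rorb. Otx2, which precedes Crx, was at 451 ± 56.6 and 468 ± 33.4 normalized CPM (SD, n = 6; log2 change 0.05, adjusted p = 0.856). Neurod1 had a log2 fold change of 0.54 (adjusted p = 0.0158), close to the 0.48 of Crx, which was called. Rorb, which acts upstream of Nrl, had one of -0.12 (adjusted p = 0.539).

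Outer segment and cilium genes were higher in 17 of 22 cases (77.3%, against 2.56% of all tested genes) and lower in 0. Their median change was 0.99. Rpgrip1, a scaffold of the connecting cilium, was at 102, 136, 140.5, 151, 182 and 155 normalized CPM at D20 and at 285, 433, 507, 372, 327 and 246 at D22. All D22 organoids were above all D20 organoids (log2 change 1.33, SE 0.15, adjusted p = 4.24e-06). Rp1, a microtubule protein of the photoreceptor axoneme, was at 173 to 648 at D20 and at 819 to 2252 at D22 (1.52), and its relative Rp1l1 rose by 0.97. The matrix proteins Impg1 and Impg2, which fill the space around the outer segments, rose by 2.34 and 1.12, the former with overlap.

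The ciliary protein Fam161a (1.13), Tulp1 (1.01), which acts in transport to the outer segment, the chaperone Aipl1 (1.06), the lipid carrier protein Unc119 (0.68), the ciliary kinase Mak (0.51), Rpgr (0.51) and Rab28 (0.46) were further members that rose. The disc proteins Rom1, Prph2, Prcd and Prom1 rose as well, with changes between 0.92 and 1.90. The days overlapped for Rpgr and Rab28. Cdhr1, a cadherin at the base of the outer segment, had no overlap between days but did not pass (log2 change 0.36, adjusted p = 0.0246). Without D20 organoids 3, 4 and 6, 11 of the 22 were called, and without D22 organoids 2 and 3, 9.

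**Figure D4:**
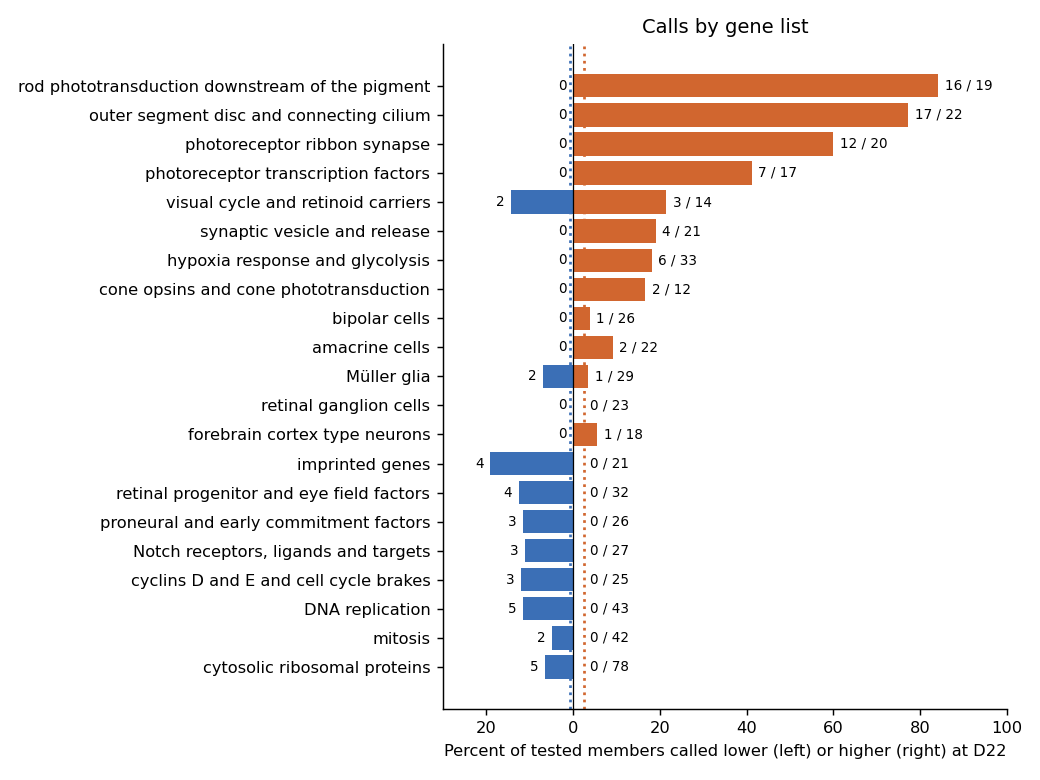
Percent of the tested members of 21 gene lists that were called higher (orange, to the right) or lower (blue, to the left) at D22, with the number called higher over the number tested at the right end and the number called lower at the left end of each bar. Dotted lines mark the shares among all annotated genes tested (2.56% higher, 0.763% lower); photoreceptor lists stand at the top with up to 16 of 19 genes higher.

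Genes of the photoreceptor ribbon synapse were higher in 12 of 20 cases (60%, against 2.56% of all tested genes) and lower in 0. Cacnb2, the beta subunit of the calcium channel at the ribbon, rose from 16.2 ± 3.73 to 44.5 ± 14.6 normalized CPM (SD, n = 6; log2 change 1.45, SE 0.17, adjusted p = 7.45e-06). Stx3, the syntaxin of ribbon synapses, was at 114, 163, 154, 152, 165 and 155 at D20 and at 236, 348, 435, 264, 296 and 226 at D22. D20 organoid 1 was well below the other D20 organoids, and the days did not overlap (log2 change 1.00, SE 0.14, adjusted p = 5.04e-05). Cplx4, a complexin of ribbon synapses, was at 0.979 to 5.83 at D20 and at 6.50 to 30.3 at D22 (2.33). Its relative Cplx3 rose by 0.99 with overlap between days. The pore subunit of the channel, Cacna1f (2.33), rose from 1.29 ± 1.11, a low level, also with overlap.

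The other members that rose were the vesicle priming factor Unc13b (0.56), the vesicle protein Sv2b (0.75), the vesicular glutamate transporter Slc17a7 (0.73), the matrix protein Egflam (0.86), Lrit1 (1.08), Vamp2 (0.67) and Syt1 (0.64). Among structural proteins of the ribbon and active zone, Ctbp2 (log2 change 0.33, adjusted p = 0.0337) and Pclo (log2 change 0.44, adjusted p = 0.0257) did not pass. Of 21 general vesicle genes, 4 were higher (19%, against 2.56% of all tested genes). They were Vamp2 and Syt1 again, Syp (0.89) and Snap25 (0.67). The days overlapped for Syt1. Without D22 organoids 2 and 3, 5 of the ribbon genes and 1 of the vesicle genes were called, and without D20 organoids 3, 4 and 6, 7 and 3.

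Retinoid genes moved in both directions. Of 14 genes of the visual cycle and of retinoid carriers, 3 were higher (21.4%) and 2 lower (14.3%). Over all tested genes, these shares were 2.56% and 0.763%. Rdh12, a photoreceptor enzyme that reduces retinal, was at 7.55, 13.2, 15.1, 20.2, 15.7 and 23.1 normalized CPM at D20 and at 46.6, 102, 131, 57.0, 53.7 and 38.0 at D22. The days did not overlap (log2 change 2.17, SE 0.24, adjusted p = 4.03e-06). The outer segment enzyme Rdh8 rose by 1.67, and Rbp3, the retinoid carrier of the space around photoreceptors, by 0.92.

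Crabp2, which delivers retinoic acid to its nuclear receptor, went from 221, 193, 169, 124, 172 and 154 normalized CPM in D20 organoids 1 to 6 to 73.9, 41.9, 31.5, 71.7, 60.1 and 122 at D22. D22 organoid 6 came close to D20 organoid 4, with no overlap (log2 change -1.37, SE 0.26, adjusted p = 0.00130). Lrat, which esterifies retinol, went from 20.1, 30.0, 22.5, 27.0, 30.2 and 25.8 to 13.3, 8.86, 7.03, 8.07, 10.3 and 12 (log2 change -1.38, SE 0.31, adjusted p = 0.00630). Its call was lost without D20 organoid 2, 3, 4, 5 or 6 or D22 organoid 2, 3, 4 or 5 (adjusted p 0.0107 to 0.0238). None of 12 tested genes of retinoic acid synthesis, breakdown and its receptors was called by edgeR or DESeq2, and 3 had an unadjusted p below 0.05.

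Some of the largest rises lay outside these lists. Pcdh15, a cadherin of sensory cells, was at 3.78, 13.6, 6.26, 10.8, 13.4 and 15 normalized CPM at D20 and at 32.2, 116, 152, 64.8, 68.7 and 20.4 at D22. D22 organoid 6 was the one nearest to the D20 range (log2 change 2.85, SE 0.34, adjusted p = 7.95e-06). Nt5e (CD73), a surface enzyme used as a marker of young rods, was at 9.51 to 40.9 at D20 and at 56.7 to 173 at D22 (1.89). The glutamate transporter Slc1a1 (1.78) and Ano2 (1.64), a chloride channel of photoreceptor terminals, rose likewise.

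Adrenomedullin (Adm), a peptide induced by low oxygen, rose with a different order of organoids. It was at 10.7 to 17.4 normalized CPM at D20 and at 87.2, 25.0, 18.8, 32.9, 36.9 and 77.3 in D22 organoids 1 to 6, highest in organoids 1 and 6 and lowest in organoid 3 (log2 change 1.72, SE 0.36, adjusted p = 0.00373). Its call was lost without D20 organoid 1, 2 or 5 or D22 organoid 1 (adjusted p 0.0118 to 0.0163). Gm12802, an RNA transcribed opposite to Tceanc2, rose by 1.62, while Tceanc2 had a log2 fold change of 0.20 (adjusted p = 0.583). Whether the counting used the strand is not stated, so that reads of such pairs may not be separable.

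Of 12 cone genes, 2 were higher (16.7%, against 2.56% of all tested genes) and 0 lower, and 10 had a positive change (median 0.42). Kcnv2, a potassium channel subunit of both rods and cones, rose from 50.4 ± 10.9 to 106 ± 33.2 normalized CPM (SD, n = 6; log2 change 1.07, SE 0.16, adjusted p = 8.77e-05), and Grk1, which is also in the rod list, was the other. The cone transducin subunits Gngt2 (log2 change 0.71, adjusted p = 0.0299) and Gnb3 (log2 change 0.58, adjusted p = 0.0299) and the cone phosphodiesterase Pde6c (log2 change -0.48, adjusted p = 0.117) did not pass. In the fit of D20 and D22 alone, 5 cone genes were called higher.

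A few genes of neurogenic progenitors were called lower at D22. Foxn4, a forkhead factor of progenitors that form amacrine and horizontal cells, was at 45.4, 27.5, 29.6, 21.8, 23.6 and 25.2 normalized CPM in D20 organoids 1 to 6 and at 17.2, 10.5, 8.44, 12.4, 11.7 and 13.3 at D22. D20 organoid 1 stood well above the other D20 organoids, and the days did not overlap (log2 change -1.23, SE 0.27, adjusted p = 0.00526). Its call was lost without D20 organoid 1, 2 or 3 or D22 organoid 2, 3, 4 or 5 (adjusted p 0.0103 to 0.0251). Of 26 tested genes in the proneural list, 3 were lower (11.5%, against 0.763% of all tested genes) and 0 higher. The lower genes included Foxn4 and Hes6 (-0.72), which promotes neurogenesis. DESeq2 called 4 lower and 2 higher, the fit of D20 and D22 alone 7 and 1, and the fit with a replicate block 1 and 0.

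Of 27 Notch genes, with a median change of -0.33, 0 were higher and 3 were lower (11.1%, against 0.763% of all tested genes). They were the ligand Dll1 (-0.74), Lfng (-1.07), a glycosyltransferase that modifies Notch, and Hes6. The days overlapped for Dll1. The receptor Notch1 had no overlap between days and stood just outside the threshold (log2 change -0.52, adjusted p = 0.0109). In the fit of D20 and D22 alone, 6 Notch genes were called lower, by DESeq2 5 and with a replicate block 2.

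Among 32 progenitor and eye field factors, 4 were lower (12.5%, against 0.763% of all tested genes) and 0 higher. The RNA-binding protein Zfp36l1 was at 104, 70.2, 60.2, 65.0, 56.7 and 52.3 normalized CPM at D20 and at 43.5, 31.0, 26.1, 27.5, 42.5 and 48.3 at D22. It was highest in D20 organoid 1, and the days did not overlap (log2 change -0.90, SE 0.19, adjusted p = 0.00333). The call for Zfp36l1 was lost without D20 organoid 1 or D22 organoid 2, 3 or 4 (adjusted p 0.0118 to 0.0174). The growth factor Fgf15 (-1.83) and Sox8 (-0.55) were also lower, Fgf15 with overlap between days. Pax6, which acts in progenitors and in inner retinal neurons, was at 579.7 ± 60.3 and 562 ± 44.4 (SD, n = 6; log2 change -0.05, adjusted p = 0.912), with a sign that depended on the scaling. The fit of D20 and D22 alone called 8 genes of this list lower, DESeq2 6 and the fit with a replicate block 2.

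Forebrain genes varied among the D20 organoids. In D20 organoids 1 to 6, progenitor factors summed to 2550, 2587, 2392, 2142, 2349 and 2473 normalized CPM. Notch genes summed to 1915, 1654, 1625, 1532, 1549 and 1564, and proneural genes to 4050, 4749, 4161, 4201, 4290 and 4908. Whether forebrain genes had a part in the falls of these lists was not tested. The changes of 17 of 18 tested forebrain genes were negative (median -1.42), and the 1 gene called in the edgeR fit of all organoids, Slc17a7, is shared with the ribbon list and was higher. The fit of D20 and D22 alone called 4 forebrain genes lower, and DESeq2 and the fit with a replicate block 1 each. Without D20 organoids 3, 4 and 6, in which the forebrain sums were highest, 3 progenitor genes, 1 Notch gene and none of the proneural genes were called lower by edgeR. Without D22 organoids 2 and 3, no gene of these 3 lists was called by edgeR. Fewer organoids entered both of these fits.

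Most cell cycle genes had a negative change. Called lower were 4.76% of the mitosis, 11.6% of the replication and 12% of the cyclin and brake genes, against 0.763% of all tested genes. All 42 tested mitosis genes had a negative change, with a median of -0.82, and 2 were called. Racgap1, which organises the central spindle, was at 29.5, 28.0, 22.3, 26.0, 25.8 and 29.7 normalized CPM at D20 and at 13.6, 14.2, 13.9, 14.4, 16.5 and 12.7 at D22. The days did not overlap (log2 change -0.92, SE 0.19, adjusted p = 0.00307). Bora, an activator of mitotic kinases, was the other (-0.61). The abundant members Top2a (299.7 to 607 at D20, 173 to 414 at D22, log2 change -0.87, adjusted p = 0.0439) and Mki67 (log2 change -0.78, adjusted p = 0.0548) overlapped and did not pass. DESeq2 called 14 mitosis genes lower and the fit of D20 and D22 alone 24, so this count depends on the fit.

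Of 43 DNA replication genes, 42 had a negative change (median -0.47) and 5 were called lower. Mcm2 (-0.98), Mcm3 (-0.93) and Mcm6 (-1.05) are subunits of the replicative helicase, Cdc45 (-0.86) joins it, and Uhrf1 (-1.08) reads freshly replicated DNA. Among these, the days overlapped for Uhrf1. Mcm6 was at 30.5, 29.0, 28.3, 21.7, 33.7 and 36.0 normalized CPM at D20 and at 11.9, 18.2, 9.86, 13.7, 19.3 and 13.6 at D22, without overlap. Its call was lost without D20 organoid 1, 2, 3, 5 or 6 or D22 organoid 1, 3 or 4 (adjusted p 0.0104 to 0.0221). The sliding clamp Pcna did not pass (log2 change -0.30, adjusted p = 0.204). Without D22 organoids 2 and 3, edgeR called no gene of the replication, mitosis and cyclin lists, and without D20 organoids 3, 4 and 6 it called 1, 0 and 1, where DESeq2 with all organoids called 7, 14 and 6.

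Several of the largest falls over all genes also act on DNA or in division. They were the nuclease Dna2 (-1.11), the fork repair factor Mms22l (-1.11), the recombination factor Fignl1 (-1.06), the mitotic phosphatase regulator Cdca2 (-1.08) and the phosphatase Cdc25b (-1.08), which activates cyclin-dependent kinases. Of 25 cyclins and brakes, cyclin D1 (Ccnd1, -0.69), the kinase inhibitor Cdkn1c (-0.98) and the repressor E2f7 (-1.39) were lower and 0 higher. The days overlapped for Ccnd1 and Cdkn1c. For histones of S phase, 46 of 51 had a negative change (median -0.53) and 1, Hist1h2bp (-1.18), was called.

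Other large falls were Pkib, an inhibitor of protein kinase A (44.6 ± 9.37 to 17.1 ± 7.72 normalized CPM, log2 fold change -1.38), the receptor phosphatase Ptpru (-1.25), the lipid kinase Pi4k2b (-1.07) and the exchange factor Arhgef37 (-1.0). Among 21 imprinted genes, 0 were higher and 4 lower (19%, against 0.763% of all tested genes). They were Plagl1 (-0.81), Igf2r (-0.57), Slc38a4 (-1.70) and Cdkn1c. Plagl1, a zinc finger factor, and Igf2r, a receptor that clears Igf2, had no overlap between days, unlike Slc38a4 and Cdkn1c.

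Of 78 ribosomal protein genes tested, 77 had a negative change (median -0.46) and 5 were called lower (6.41%, against 0.763% of all tested genes). Among them were Rpl3 (-0.54), Rpl4 (-0.45), Rpl8 (-0.59) and Rpl13 (-0.59). Rpl8 was at 496, 468, 475, 445, 362 and 381 normalized CPM at D20 and at 299, 238, 254, 308, 266 and 383 at D22, where organoid 6 lay within the D20 range. The summed level was 15450 and 15970 in D22 organoids 2 and 3, which had the highest rod sums, and 29260 in D22 organoid 6, which had the lowest, against 23730.0 to 30560.0 at D20. The part of this spread in the other changes was not tested. Without D22 organoid 6, 48 of the genes were called lower, without D22 organoid 2 or 3 none by edgeR, and with all organoids 22 by DESeq2. Many of these genes have near-identical pseudogenes, so their counts are uncertain.

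**Figure D5:**
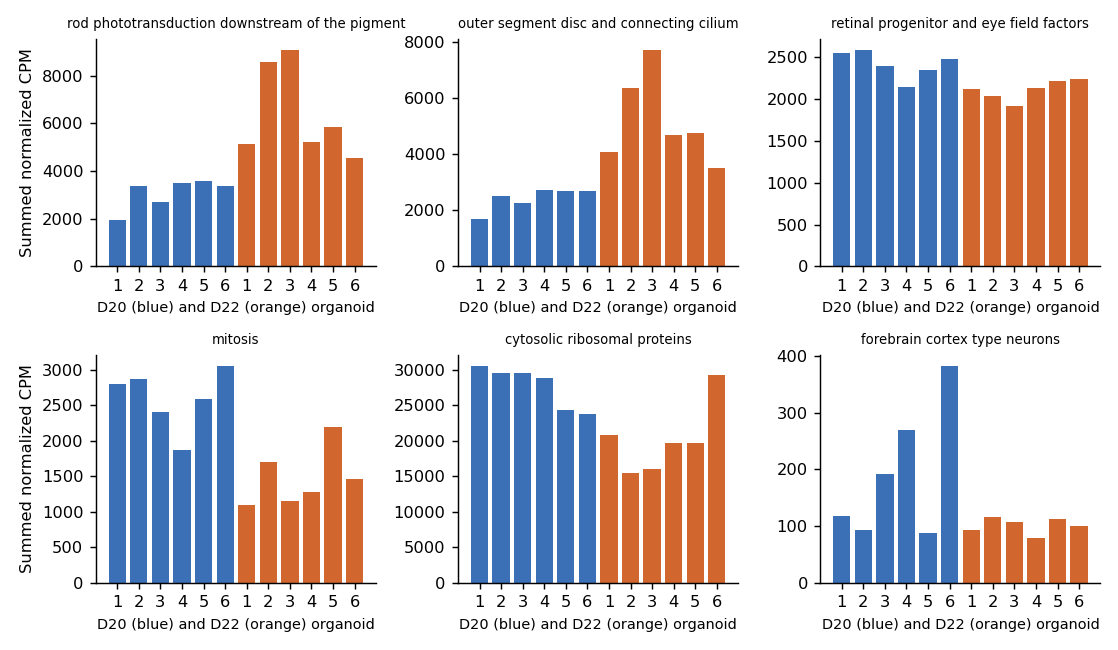
Summed normalized CPM (vertical axis, from 0) of 6 gene lists in D20 (blue) and D22 (orange) organoids 1 to 6. Rod sums are 1952 to 3569 at D20 and 4544 to 9100 at D22, ribosomal protein sums are lowest in D22 organoids 2 and 3, and forebrain sums are highest in D20 organoids 3, 4 and 6.

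Calls among markers of inner retinal cells and glia were small in number. Called higher were 9.09% of the amacrine, 11.1% of the horizontal, 3.85% of the bipolar and 3.45% of the Müller glia genes. Of the Müller glia genes, 6.9% were lower. Over all tested genes, 2.56% were higher and 0.763% lower. Tfap2b, a factor of amacrine and horizontal cells, was at 16.1 to 44.0 normalized CPM at D20 and at 51.3, 157, 149, 80.3, 57.4 and 40.05 in D22 organoids 1 to 6, where organoid 6 overlapped with D20 (log2 change 1.45, SE 0.30, adjusted p = 0.00378). Its call was lost without D20 organoid 1 or D22 organoid 2 or 3 (adjusted p 0.0161 to 0.0194). It was the 1 called gene of 9 horizontal cell genes and, with the glycine transporter Slc6a9 (0.78), 1 of 2 among 22 amacrine genes. Of 26 bipolar genes, 1 was higher, Car8, at 0.317 ± 0.216 and 1.19 ± 0.563, close to the 3-count limit.

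Of 29 Müller glia genes, Car2, a carbonic anhydrase, was higher (0.77), while Dkk3, a secreted protein (649 ± 96.4 to 393 ± 88.0 normalized CPM, log2 change -0.72, SE 0.13, adjusted p = 0.000610), and Sox8 were lower. The retinal carrier Rlbp1 did not pass (log2 change 0.81, adjusted p = 0.0176). None of 23 ganglion cell genes was called by edgeR, with 11 at an unadjusted p below 0.05, 1 called lower by DESeq2 and 7 called lower in the fit of D20 and D22 alone. Of these genes, 21 had a negative change (median -0.70), and their sum was 651 to 1003 at D20 and 442 to 589.8 at D22. The abundant neuronal members Stmn2 (-0.47), Tubb3 (-0.52) and Gap43 (-0.75), which forebrain neurons also express, had adjusted p of 0.293 to 0.458.

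In the hypoxia and glycolysis list, with a median of 0.04, 0 of 33 genes were lower and 6 higher (18.2%, against 2.56% of all tested genes). They were the glycolytic enzymes Hk1 (0.48), Eno2 (0.44), Ldha (0.38) and Gapdh (1.60), and Ndrg1 (0.52) and Adm. Gapdh was counted at 10.2 ± 3.76 and 30.9 ± 6.29 normalized CPM, and with its many pseudogene copies this value is uncertain. Leaving out 1 organoid left 1 to 5 genes of this list called, with 1 without D20 organoid 1, 2 without D20 organoid 5 or D22 organoid 1 and 3 without D20 organoid 2 or 3 or D22 organoid 3. Without D20 organoids 3, 4 and 6, 1 was called, and without D22 organoids 2 and 3, 3. The co-receptor Boc (-1.70) and Ccnd1 were lower among 14 Hedgehog genes (14.3%). Among 18 FGF genes, Fgf2 was higher (1.85) and Fgf15 lower (5.56% each way). Dkk3, which was lower, was the 1 called gene of 33 in the Wnt list (3.03%). Over all tested genes, 2.56% were higher and 0.763% lower.

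In the remaining lists with calls, Ier3 (1.32) was higher among 20 immediate early genes, the caspase inhibitor Xiap (0.58) among 24 apoptosis genes and the neural splicing factor Srrm4 (0.48) among 32 splicing and RNA-binding genes. Sdf2l1 (-0.95), a protein of the endoplasmic reticulum, was lower among 30 stress genes. Fgf2 was the 1 called gene of 15 in the reactive gliosis list and Lrat of 13 in the pigment cell list. Called higher were 5% of the immediate early, 4.17% of the apoptosis, 3.12% of the splicing and 6.67% of the gliosis genes. Lower were 3.33% of the stress and 7.69% of the pigment cell genes. Over all tested genes, 2.56% were higher and 0.763% lower. Each of these list shares rests on 1 call. No gene was called by edgeR among 30 BMP and TGF beta genes (3 at an unadjusted p below 0.05, 0 by DESeq2), 20 antioxidant genes (5, 1 by DESeq2), 20 clock genes (5, 1 by DESeq2) and 16 nuclear long noncoding RNAs (6, 0 by DESeq2). The same held for 9 oligodendrocyte (1), 12 mesenchyme (3), 9 choroid plexus (2), 5 muscle (1), 4 endothelium (1), 4 pluripotent (0) and 1 microglia gene (0), with 0 by DESeq2 in each.

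Genes of cholesterol synthesis were not called in the edgeR fit of all organoids (24 tested, 16 at an unadjusted p below 0.05). Of all 24, 21 had a negative change (median -0.44) and 9 had no overlap between days, against 770 of 16253 (4.74%) over all tested genes. Their sum was 1424 to 1681 normalized CPM at D20 and 983 to 1353 at D22. DESeq2 called 1 lower, the fit with a replicate block 1 and the fit of D20 and D22 alone 4.

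The step from D20 to D22 was compared with the step from D22 to D25 in the same fit. The steps share the D22 organoids and are 2 and 3 days long. A steady change per day would therefore also make them differ, so the test alone does not show a turn at D22. The steps differed for 4 of the 16253 genes (0.0246%), and 2684 had an unadjusted p below 0.05. The count depended on the tool and filter, with 116 genes by DESeq2, 2 with annotated genes only and 1 with edgeR's own filter (filterByExpr). Lcorl was at 551 ± 58.9 normalized CPM at D20, 613 ± 37.8 at D22 and 317 ± 33.8 at D25 (SD, n = 6 each; difference of the log2 steps 1.10, SE 0.16, adjusted p = 0.00486). Ccdc136, a gene of the cone list, was at 349 ± 56.3, 506 ± 94.8 and 263 ± 47.0 (1.47, SE 0.24, adjusted p = 0.00690). Both had their highest mean at D22, though Ccdc136 was not called between D20 and D22. Timp2, an inhibitor of matrix proteases, had its lowest mean there, with 10.9 ± 1.75, 6.99 ± 2.01 and 20.1 ± 5.56 (-2.18, SE 0.38, adjusted p = 0.00981). Sox21, the fourth, had 2 to 31 counts per organoid at D20, 0 or 1 at D22 and 3 to 53 at D25. Its D20 mean was 3.59 times the level of 3 counts per D22 library, without regard to the spread between organoids.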

How the data were processed

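Total RNA of single organoids was depleted of ribosomal RNA, and strand-specific libraries were sequenced. Per the submitters' notes and the study's methods, the authors trimmed reads with cutadapt 1.5, aligned them with hisat2 to GRCm38/mm10, assembled transcripts with stringtie 1.3.3 and counted reads with HTSeq 0.6.1, and the strand setting of the counting is not given in the sources used here. The deposited values are raw counts for 126602 features per organoid, 46603 of them annotated genes and 79999 assembled loci. The lines of HTSeq that name no gene were left out of all totals. Symbols and coordinates came from GENCODE release M21 (GRCm38), in which 46091 gene identifiers matched a symbol.

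Counts were fitted with edgeR 4.0.16 (R 4.3.3; TMM, quasi-likelihood test, 1 mean per timepoint, all 24 organoids) over the 46949 features averaging 10 normalized counts or more, and p-values were adjusted over all of them by Benjamini-Hochberg. DESeq2 1.42.0, other scalings, filters and thresholds, a replicate block and left-out organoids served as alternatives. On simulated counts with 200 changed features, the D22 against D20 test recovered 75 of 100 features changed by 2-fold and 99 of 100 changed by 4-fold, with 2 false calls among 46949 features. The changed features were drawn from better counted annotated genes than the filter required. Each feature was simulated on its own, so genes that vary together between organoids were not represented. These rates therefore need not hold for the real counts.

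The named genes are the 15 largest rises and 15 largest falls among called genes without overlap that averaged 100 normalized counts or more. Also named are up to 6 called and 4 uncalled members of each list, and the genes whose steps before and after D22 differed. Members beyond this rule are named where they complete a count and were chosen after their values were seen. The members and the gene lists were chosen with earlier results of these data known. Some genes within the rule are not reported here. Replicate numbers did not pair the organoids, as the sensitivity check below records. No 2 libraries agreed within sampling noise (lowest chi-square per degree of freedom 10.2 within a day).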

Additional observations from a re-analysis of the deposited data

Results flagged for a closer look

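Single organoids stood apart from the others of their day, by the ratio of their gap to the nearest organoid to the range of the day (Dixon's ratio, above its 95% critical value for 6 organoids), in 20 of 282 gene and day combinations looked at (7.1%). Chance gives about 1 in 20 for genes that vary independently. Genes that vary together between organoids are not separate events. In 13 of the 20 the organoid was D20 organoid 1. It was the lowest of D20 for Nrl (ratio 0.636), Samd7 (0.658), Casz1 (0.842), Stx3 (0.739), Syp (0.733), Ctbp2 (0.837), Gngt2 (0.681) and Car2 (0.639), and the highest for Foxn4 (0.671), Dll1 (0.669), Zfp36l1 (0.651) and Mcm3 (0.8). For Gucy2f (1.0) it held the only count of D20. D20 organoid 1 lay on the side away from the D22 mean for each of these genes but Gucy2f. Many of the genes looked at were named because they were called with these same organoids. That choice favours this side, so the direction is a description.

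Of the other organoids, D20 organoid 4 was highest for Pclo (0.675) and Sox21 (0.671) and lowest for Pax6 (0.645), D20 organoid 5 was highest for Sdf2l1 (0.665), and D22 organoid 6 was lowest for Sdf2l1 (0.68) and highest for Gnat1 (0.799). D22 organoid 1 was highest for Pde6c (0.8).

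The steps before and after D22 differed, by edgeR's test of the difference, for Lcorl (difference of log2 steps 1.1), Ccdc136 (1.47), Timp2 (-2.18) and Sox21 (-10.01, a fitted value that depends on the prior count, since D22 had 2 counts in all).

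Outside the annotated genes, 354 of the 30696 assembled loci tested differed between D20 and D22, 344 higher at D22 and 10 lower.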

How the results depend on the processing

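Against the 540 genes called, DESeq2 called 873 (323 lower), an adjusted p below 0.05 called 1327 (775 higher, 552 lower), and a 2-fold minimum left 187 (152 and 35). The fit of D20 and D22 alone called 303 lower. Without D20 organoids 3, 4 and 6, 205 were called (169 higher, 36 lower), and without D22 organoids 2 and 3, 118 (115 and 3), both chosen after seeing the data. Fewer organoids entered these 2 fits, and the cause beyond that was not tested. Leaving out 1 organoid gave 268 to 823 genes, 224 to 538 higher and 44 to 285 lower. For genes lower at D22, 51, 69 and 75 were called without D20 organoids 1, 2 and 3, and 60, 44, 71 and 285 without D22 organoids 2, 3, 4 and 6. Other scalings and filters gave 469 to 699 genes. The count of 4 genes whose steps before and after D22 differed became 2 with annotated genes only, 116 with DESeq2 and 1 with filterByExpr. The cause was not tested. The distance between days kept its direction and an exact permutation p of at most 0.00433 under each alternative run. Changes near 0 that turned sign were Guca1a (-0.322 to 0.201 on leaving out single organoids, with 0.020 without D20 organoid 4, 0.201 without D20 organoid 5 and 0.003 without D22 organoid 5), Gnb5 (-0.006 without D22 organoids 2 and 3), Otx2 (-0.016 to 0.106, the former without D20 organoid 1) and Pax6 (0.005 with annotated genes only or TMM from them, 0.010 without D22 organoids 2 and 3). No called named gene turned sign in the alternatives run, but many lost their call. Of 116 called named genes, 4 to 45 lost it on leaving out 1 organoid, the most without D22 organoid 3. Without D20 organoids 3, 4 and 6, 62 lost it, and without D22 organoids 2 and 3, 77. Lost calls are given above for only some of these genes. With a replicate block, 500 genes were called (469 of the 540), though same-numbered organoids did not deviate together (correlations -0.051 to 0.064, 0 of 6 closest to its own number), so the numbers were not taken to pair organoids.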

Other observations

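Genes of the BBSome, the complex that moves membrane proteins in cilia, and of its assembly were looked at after the values had been seen, so their count carries no test. Of 13 genes, 8 were higher at D22 (61.5%, against 2.56% of all tested genes) and 0 lower, with a median log2 fold change of 0.60. Bbs5 was at 19.5 ± 3.22 normalized CPM at D20 and 36.9 ± 8.98 at D22 (SD, n = 6; log2 change 0.92, SE 0.15, adjusted p = 0.000185, edgeR). The others were Bbs1 (0.66), Bbs2 (0.72), Bbs4 (0.58), Bbs7 (0.68), Bbs9 (0.61), Arl6 (0.72), a GTPase that recruits the complex to membranes, and Bbs12 (0.60), a chaperone of its assembly. Without D20 organoids 3, 4 and 6, 2 were called, and without D22 organoids 2 and 3, 3.

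Translation factors, chosen in the same way, had 6 of 25 genes lower (24%) and 1 higher (4%). Over all tested genes, 0.763% were lower and 2.56% higher. The lower genes were the elongation factors Eef1a1 (-0.51), Eef1b2 (-0.58) and Eef1d (-0.59), the ribosome-bound Rack1 (-0.66) and Naca, and Npm1 (-0.44), a nucleolar protein. Eef1a2, the form of Eef1a1 in mature neurons and muscle, went the other way, from 32.7 ± 6.03 to 55.7 ± 16.4 normalized CPM (log2 change 0.77, SE 0.17). Without D20 organoids 3, 4 and 6, none of these genes was called by edgeR, and without D22 organoids 2 and 3, none either.

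Of the 27 called long noncoding RNAs, 26 were higher at D22, out of 1881 tested, against 540 called of 16253 over all genes. Several lie opposite to another gene. AI847159 had a log2 fold change of 2.93, Uckl1os of 1.51 beside 0.81 for Uckl1, and Gm26954 of 1.22 beside 0.44 for Pclo. These RNAs were named after their values had been seen, and the strand used in counting is not stated.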
